A study of Mus musculus with 16 samples.

Results

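The 41 interferon-stimulated genes described here were measured in whole mouse kidney. They were chosen by a list of gene symbols and not by a cutoff on their values, but with earlier results of these data known. All 41 were found once in the deposited table of 57186 genes, and all 41 had at least 100 counts over the 16 libraries, so that all are among the 25408 genes tested. Total counts over the libraries ran from 481 for Mx1 to 136796 for Trim25. All 16 mice were male, carried Elmo1H/H on a C57BL/6J background and were 16 weeks old when killed, and Elmo1H/H raises the expression of Elmo1, so no group had the normal Elmo1 allele. Diabetic mice also carried Ins2Akita/+, an insulin gene variant that damages the beta cells of the pancreas. By the labels there were 4 groups of 4 libraries. ND_C and D_C stand for untreated non-diabetic and diabetic mice, and ND_B12 and D_B12 for their counterparts given vitamin B12. Treated mice drank B12 in water at 10 mg/kg per day from 8 weeks of age, for 16 weeks by the labels and for 8 weeks by the study's methods. The comparisons ask how B12 and diabetes bear on kidney RNA levels.

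Interferons are secreted signals that cells release when RNA or DNA sensors detect viral or misplaced nucleic acid. Type I interferons bind the receptor made of Ifnar1 and Ifnar2, and the kinases Jak1 and Tyk2 then activate a complex that includes Stat2 and Irf9 and binds interferon-stimulated response elements in promoters. The genes induced in this way include more sensors, the factor Irf7 that amplifies the response, and antiviral proteins, and kidney tubular, endothelial and immune cells can all express them.

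Totals per library ran from 65271308 to 91771136 counts, and the 4 libraries labelled D_C, at 85751266 to 91771136, were each deeper than the 4 labelled ND_C, at 72867148 to 84053153. The labels did not match the study's own group means. Over 181 genes and every possible set of 4 libraries, the set that gave a published mean held 5 libraries under their own label and 11 under another. The sets placed the 4 libraries labelled D_B12 together as D_C, and placed the libraries labelled D_C 2, D_C 3 and D_C 4 with ND_B12 4 as D_B12. Which placement is right was not settled here. Groups below are those of the labels, and the direction of D_B12 minus D_C in particular would turn if the labels were wrong. In the other groups, D_C 1 and ND_C 3 fell in the set for ND_B12, and ND_B12 1 in the set for ND_C. The labels also carry 10 dates over 111 days, whose nature is not stated, and no date is shared by a library labelled D_C and one labelled D_B12.

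Promoter sequence is shown for 4 members, chosen after their values were seen, in which no D_B12 library reached a D_C library and which hold the core of the interferon-stimulated response element. The windows are the 250 bases before the annotated start in GRCm39, 5′ to 3′ on the strand of the gene, and capitals mark each match to GAAA, any 2 bases and GAAA again, or to the reverse complement of that motif (TTTC, any 2 bases and TTTC).
Ifit3 (chr19:34560649-34560898, plus strand): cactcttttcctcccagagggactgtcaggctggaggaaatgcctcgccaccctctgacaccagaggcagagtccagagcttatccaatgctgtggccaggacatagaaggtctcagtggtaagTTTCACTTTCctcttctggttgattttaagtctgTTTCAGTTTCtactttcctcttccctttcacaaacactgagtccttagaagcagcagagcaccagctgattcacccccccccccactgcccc
Ifit3b (chr19:34585078-34585327, plus strand): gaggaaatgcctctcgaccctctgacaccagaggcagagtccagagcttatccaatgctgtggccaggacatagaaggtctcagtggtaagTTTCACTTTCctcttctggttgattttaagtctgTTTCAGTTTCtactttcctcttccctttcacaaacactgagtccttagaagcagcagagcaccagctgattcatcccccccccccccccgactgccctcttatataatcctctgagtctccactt
Ifit1 (chr19:34618021-34618270, plus strand): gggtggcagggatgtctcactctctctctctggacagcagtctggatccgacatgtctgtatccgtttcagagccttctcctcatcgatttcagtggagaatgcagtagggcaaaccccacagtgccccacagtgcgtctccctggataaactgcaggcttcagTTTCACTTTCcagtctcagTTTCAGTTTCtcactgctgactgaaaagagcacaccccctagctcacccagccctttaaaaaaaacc
Isg15 (chr4:156285304-156285553, minus strand): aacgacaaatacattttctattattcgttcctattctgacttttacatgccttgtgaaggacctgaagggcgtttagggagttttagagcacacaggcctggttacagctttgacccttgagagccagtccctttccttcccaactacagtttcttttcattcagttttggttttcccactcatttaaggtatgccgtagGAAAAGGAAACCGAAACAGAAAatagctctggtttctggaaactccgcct
The motif, searched on both strands with overlaps allowed, was in the window of 18 of the 41 members (43.9%) and in 719 of 21678 windows of protein-coding genes (3.32%). In Isg15, 3 overlapping matches form 1 run, and the last of them begins 38 bases before the start. Ifit3 and Ifit3b, neighbours on chromosome 19, share an identical run of 182 bases that holds both of their matches, placed 33 bases farther from the start in Ifit3b. The windows of Ifih1, Dhx58, Irf7 and Mx1 held no match, which says only that these letters were not within 250 bases. In D_B12 minus D_C the 18 members with the motif had a median log2 fold change of -0.34 and the 23 without it a median of -0.22.

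In the comparison of the libraries labelled D_B12 with those labelled D_C, 38 of 41 members were lower, with a median log2 fold change of -0.28 against 0.00 over all genes tested. No member passed an adjusted p-value of 0.05 by edgeR's quasi-likelihood test with Benjamini-Hochberg adjustment, and 0% of all genes did. The smallest adjusted p-value of a member was 0.0783, shared by Ifih1, Ifit3 and Ifit3b. At an unadjusted p-value below 0.05, 14 members (34.1%) were lower, where 7.21% of all genes were. By that rule 0 members were higher, where 1636 of the 25408 genes tested were. In 10 members (24.4%) each D_B12 library was below each D_C library, which held for 3.18% of all genes. By DESeq2, 6 members passed an adjusted p-value of 0.05 (Ifih1, Isg15, Ifit1, Ifit3, Ifit3b and Ifit1bl2), all lower (14.6% of the members), where that tool called 2.64% of all genes, or 670. Counts were also simulated with 200 genes changed 2-fold in D_B12. There 12.6% of DESeq2's calls were false, against 5.85% of edgeR's, so the calls by DESeq2 are less strictly held. Without D_C 1, the one D_C library that the published means place among non-diabetic kidneys, 35 members were lower and 11 (26.8%) had an unadjusted p-value below 0.05, where 6.82% of all genes were lower by that rule. With the label date as a covariate, 27 members were lower, their median was -0.056, and 4 (9.76%) were lower at an unadjusted p-value below 0.05, where 7.93% of all genes were. In that fit Ifih1 alone of the members (2.44%) passed an adjusted p-value of 0.05 by edgeR, where 0.803% of all genes did. Label date and labelled group are nearly confounded, since the dates ran from day 21 to 58 in D_C and from day 63 to 111 in D_B12. The covariate fit can therefore hardly separate a difference by date from one by group.

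**Figure D1:**
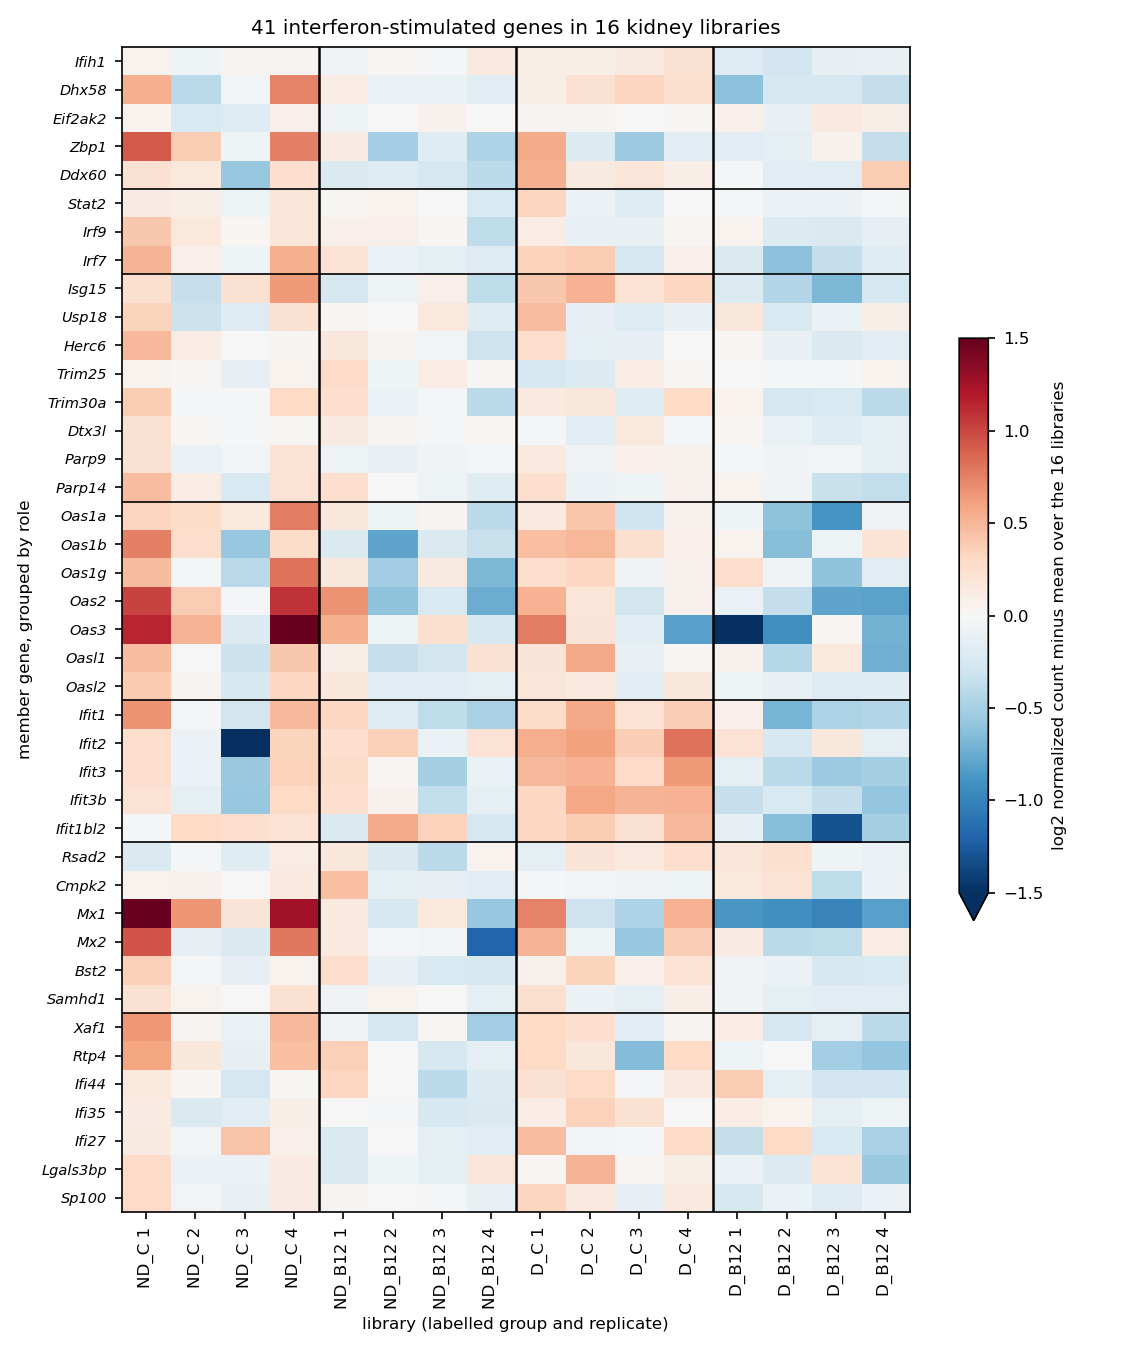
Each row is one of the 41 members, ordered by role and split by horizontal lines, and each column is one library, in the 4 labelled groups split by vertical lines. Colour is the log2 normalized count minus the gene's mean over 16 libraries, cut off at 1.5 in either direction. Red prevails in ND_C 1, ND_C 4, D_C 1, D_C 2 and D_C 4, and more weakly in ND_B12 1. Blue prevails in ND_C 3, ND_B12 4, D_B12 2, D_B12 3 and D_B12 4, and more weakly in ND_B12 2 and ND_B12 3. ND_C 2, D_C 3 and D_B12 1 are mixed.

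Values below are normalized counts, which are estimated counts scaled by DESeq2's size factors, and they compare libraries within a gene. Between genes, levels were compared as normalized counts per kilobase of annotated exon. On that scale the highest means over the 16 libraries were 1475 for Trim25, a ubiquitin ligase of RNA sensor signalling, 741 for Lgals3bp, a secreted glycoprotein, and 693 for Rsad2, the antiviral enzyme viperin. The lowest means were 6.18 for Oas3 and 8.83 for Mx1.

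The RNA sensors recognise double-stranded or otherwise foreign RNA. Ifih1 encodes MDA5, a helicase that binds long double-stranded RNA in the cytosol. Its normalized counts were 1422, 1425, 1473 and 1578 in D_C and 1177, 1102, 1229 and 1245 in D_B12. They were 1398, 1287, 1381 and 1380 in ND_C and 1296, 1358, 1329 and 1491 in ND_B12. The D_B12 libraries were the 4 lowest of all 16, and each D_C library was above each ND_C library. D_B12 minus D_C was -0.31 ± 0.06 (log2 fold change ± SE), with an adjusted p-value of 0.0783 by edgeR and an exact permutation p of 0.0286 on the log scale, the smallest that 4 against 4 allows. In D_B12 minus ND_B12 it was -0.21 ± 0.06, with an adjusted p-value of 0.111 by edgeR.

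Dhx58 encodes LGP2, which assists MDA5. It had 125, 137, 147 and 138 normalized counts in D_C and 76.2, 98.0, 98.4 and 91.1 in D_B12, so that these groups did not overlap. It had 169, 88.5, 113 and 196 in ND_C, where ND_C 2 and ND_C 4 stood far apart, and 127, 110, 109 and 103 in ND_B12. D_B12 minus D_C was -0.58 ± 0.20, with an adjusted p-value of 0.212 by edgeR. Zbp1, a sensor of left-handed nucleic acid that can start necroptosis and is named here after its values were seen, had 177, 121, 89.5 and 158 normalized counts in ND_C and 102, 65.5, 82.1 and 67.7 in ND_B12. Only ND_C 3 lay within the range of ND_B12. ND_B12 minus ND_C was -0.78 ± 0.25, with an adjusted p-value of 0.57 by edgeR, while D_B12 minus D_C was -0.11 ± 0.25 and turned to 0.18 without D_C 1. A retained-intron transcript held 50.6% of Zbp1 counts. The other sensors differed less, with D_B12 minus D_C at 0.03 for Eif2ak2, the RNA-activated kinase PKR, and at -0.22 for Ddx60, a helicase.

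Of the transcription factors, Irf7, which amplifies interferon production, had 729, 743, 480 and 605 normalized counts in D_C and 492, 373, 446 and 499 in D_B12. The groups overlapped through D_C 3, whose 480 was below 2 D_B12 libraries. In ND_C it was 815, 605, 549 and 839 and in ND_B12 667, 533, 517 and 503, with ND_C 1 and ND_C 4 the highest of all 16 libraries. D_B12 minus D_C was -0.50 ± 0.16 with an adjusted p-value of 0.193, and ND_B12 minus ND_C was -0.34 ± 0.16 with an adjusted p-value of 0.667, both by edgeR. Irf9, a DNA-binding partner of Stat2, had 924, 796, 797 and 879 normalized counts in D_C and 894, 743, 742 and 791 in D_B12, which overlapped. It had 1134, 960, 879 and 971 in ND_C and 904, 905, 874 and 658 in ND_B12, where ND_B12 4 stood below the other 3. ND_B12 minus ND_C was -0.24 ± 0.11, with an adjusted p-value of 0.642 by edgeR. Stat2 had differences between -0.11 and -0.02 in the 4 pairwise comparisons.

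**Figure D2:**
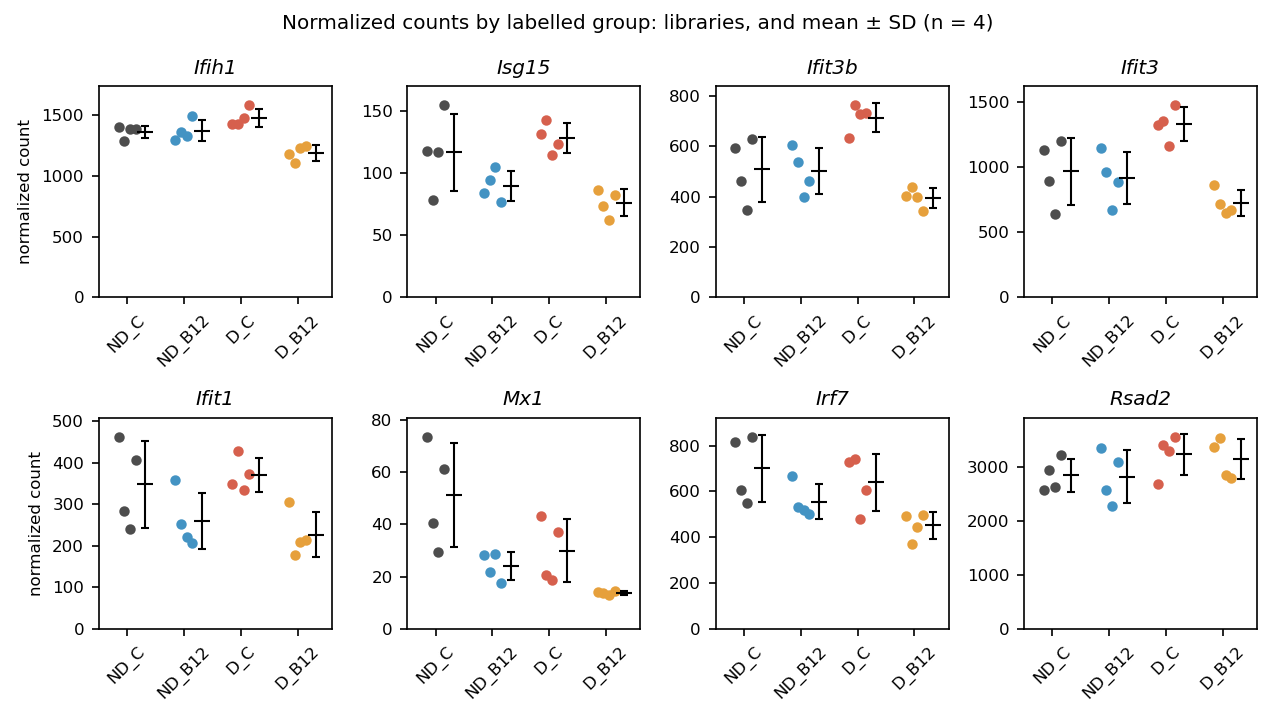
Normalized counts (linear axes from 0) of 8 members, with a point per library in each labelled group and the mean ± SD (n = 4) beside it. In Ifih1, Isg15, Ifit3b, Ifit3, Ifit1 and Mx1 each D_B12 point lies below each D_C point, while in Irf7 and Rsad2 the groups overlap.

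Isg15 encodes a ubiquitin-like protein that is attached to other proteins and removed from them by Usp18. It had 131, 143, 115 and 124 normalized counts in D_C and 86.3, 73.5, 62.5 and 82.6 in D_B12, with no overlap. It had 117, 78.5, 117 and 155 in ND_C and 84.1, 94.3, 104 and 76.4 in ND_B12, which overlapped. D_B12 was at 59.5% of the D_C mean, and the log2 fold change was -0.75 ± 0.19 with an adjusted p-value of 0.109 by edgeR. Of the 50-base words of Isg15, 26.6% also occur in the overlapping gene Gm46878, so reads may be split between them. Trim30a, a mouse TRIM protein that dampens inflammatory signalling, had 593, 605, 470 and 662 in D_C and 557, 452, 460 and 409 in D_B12, where D_C 3 and D_B12 1 made the groups overlap. It had 697, 533, 532 and 660.3 in ND_C and 638, 505, 527 and 410.0 in ND_B12, which overlapped. Its log2 fold change was -0.31 ± 0.14, with an adjusted p-value of 0.36 by edgeR. The other 6 members of the group, which are the conjugating and deconjugating enzymes Herc6 and Usp18, Trim25, the ligase partners Dtx3l and Parp9, and Parp14, had log2 fold changes between -0.21 and 0.08 in that comparison, and none had an unadjusted p-value below 0.05.

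The OAS family makes short oligoadenylates on double-stranded RNA, which switch on the nuclease RNase L. Of Oas1b counts, 90.7% were given to a transcript annotated as loss-of-function, so they need not stand for a working enzyme. All 7 members were lower in D_B12 minus D_C, from -0.80 for Oas3 to -0.22 for Oasl2 with a median of -0.41, and all 7 were lower in ND_B12 minus ND_C, with a median of -0.46. Oas1a had 122, 147, 89.8 and 115 normalized counts in D_C and 105, 72.6, 59.8 and 106 in D_B12, which overlapped. It had 138, 133, 122 and 187 in ND_C and 123, 105, 113 and 84.1 in ND_B12, and ND_C 3 alone of the ND_C libraries lay below ND_B12 1. Its log2 fold changes were -0.47 ± 0.21 and -0.45 ± 0.21, with adjusted p-values of 0.346 and 0.655 by edgeR. Oas2 had 119, 94.0, 68.4 and 86.8 in D_C and 77.2, 64.4, 47.8 and 47.4 in D_B12, and these overlapped. It had 168, 107, 81.6 and 176 in ND_C and 132, 54.6, 70.9 and 49.3 in ND_B12, where ND_B12 1 stood above the other 3. ND_B12 minus ND_C was -0.79 ± 0.31 with an adjusted p-value of 0.61 by edgeR. Oas1a and Oas1g share 56.8% and 54.9% of their 50-base words, so reads of 50 bases can be split between them and their separate values are uncertain. In all, 8 members shared 10% or more of such words with other genes, among them Isg15 at 27% and Sp100 at 13%.

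The IFIT proteins bind viral RNA that lacks the cap marks of the host, and their 5 genes lie together on chromosome 19. All 5 were lower in D_B12 minus D_C, between -0.93 and -0.57 with a median of -0.85, and all 5 were higher in D_C minus ND_C, between 0.09 and 0.79 with a median of 0.46. Ifit3 (chr19:34560899-34566443) had 1325, 1357, 1159 and 1475 normalized counts in D_C and 863, 715, 648 and 672 in D_B12. It had 1133, 890, 643 and 1204 in ND_C and 1144, 966, 670 and 885 in ND_B12. The D_B12 libraries were below all D_C libraries, and only ND_C 4 exceeded the lowest D_C library. D_B12 was at 54.5% of D_C, with a log2 fold change of -0.87 ± 0.18 and an adjusted p-value of 0.0783 by edgeR. Ifit3b (chr19:34585328-34590801), its near copy, had 633, 763, 728 and 732 in D_C, 403, 438, 400 and 341 in D_B12, 594, 462, 345 and 630 in ND_C and 607, 536, 397 and 463 in ND_B12. Here each D_C library was above each other library of the 16. D_B12 minus D_C was -0.85 ± 0.17 with an adjusted p-value of 0.0783, and D_C minus ND_C was 0.49 ± 0.16 with an adjusted p-value of 0.123, both by edgeR. Ifit3 and Ifit3b share 46.7% and 47.8% of their 50-base words, and their separate values are uncertain in the same way.

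The other IFIT genes were picked for library values after their values were seen, and not all groups are printed for each. Ifit1, which binds RNA with an uncapped or unmethylated end, had 349, 428, 335 and 372 normalized counts in D_C and 304, 179, 209 and 214 in D_B12, with no overlap. Its log2 fold change was -0.71 ± 0.22 with an adjusted p-value of 0.175 by edgeR, and ND_C again ran from 239 in ND_C 3 to 462 in ND_C 1. Ifit1bl2, a relative of Ifit1, had 128, 133, 120 and 143 in D_C and 94.3, 66.2, 41.4 and 72.9 in D_B12, which gives -0.93 ± 0.22 on the log2 scale with an adjusted p-value of 0.0981 by edgeR. Ifit1bl2 had 101, 126, 122 and 119 in ND_C and 88.4, 151, 131 and 86.1 in ND_B12, where ND_B12 1 and ND_B12 4 lay below D_B12 1. Its annotated span contains Ifit1 on the opposite strand, and since no source states strand-specific counting, their reads may be mixed. Ifit2 had 1238, 1289, 1098 and 1493 in D_C and 988, 719, 956 and 774 in D_B12, with no overlap, and a log2 fold change of -0.57 ± 0.44. In ND_C it was 1016, 797, 71.4 and 1075. The value of 71.4 belongs to ND_C 3, where the transcript that held 98.8% of Ifit2 counts over all libraries is listed at 0. Without ND_C 3, Ifit2 moved from 0.79 to 0.41 in D_C minus ND_C and from 0.39 to 0.02 in ND_B12 minus ND_C.

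Among the antiviral effectors, Mx1 had the largest fold change of the members at the lowest counts. It is named for a dynamin-like GTPase that blocks influenza viruses in the nucleus. It had 43.2, 20.7, 18.7 and 36.9 normalized counts in D_C and 14.0, 13.6, 12.9 and 14.6 in D_B12, and 73.6, 40.8, 29.4 and 61.4 in ND_C and 28.4, 21.8, 28.6 and 17.4 in ND_B12. Treated and untreated libraries did not overlap in either background. D_B12 minus D_C was -1.11 ± 0.34 with an adjusted p-value of 0.167, and ND_B12 minus ND_C was -1.09 ± 0.32 with an adjusted p-value of 0.57, both by edgeR. Of its transcript counts, 79.2% were given to a transcript that has no defined coding sequence. Mx1-209, annotated as loss-of-function, held 79 counts, and Mx1-201, annotated as protein-coding, held 11. The Mx1 values therefore need not stand for a working protein. Bst2, or tetherin, holds budding virus at the cell surface. It had 524, 632, 528 and 581 in D_C and 482, 472, 424 and 430 in D_B12, with no overlap, and 645, 494, 462 and 520 in ND_C against 600.5, 464, 428 and 425 in ND_B12, which overlapped. Its log2 fold change in D_B12 minus D_C was -0.32 ± 0.12, with an adjusted p-value of 0.261 by edgeR. Rsad2, named after its values were seen, differed by less than the spread between libraries. It had 2681, 3393, 3289 and 3552 in D_C and 3367, 3530, 2850 and 2786 in D_B12, differing by -0.04 ± 0.12 on the log2 scale, and its neighbour Cmpk2, a mitochondrial nucleotide kinase, stood at 0.04. Mx2, a second Mx gene, and Samhd1, a nucleotide hydrolase, stood at -0.24 and -0.16. Of Mx2 counts, 59.2% were given to a transcript annotated as loss-of-function.

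Of the 7 other induced genes, all were lower in D_B12 minus D_C, from -0.34 to -0.19. Sp100, a component of nuclear bodies, had 1377, 1215, 1014 and 1218 normalized counts in D_C and 936, 1027, 963 and 1035 in D_B12, where D_C 3 alone lay within the D_B12 range. It had 1342, 1069.6, 1016 and 1195 in ND_C and 1129, 1101, 1076 and 1019 in ND_B12, which overlapped. Its log2 fold change was -0.28 ± 0.09, with an adjusted p-value of 0.198 by edgeR. Ifi27 had 1883, 1327, 1337 and 1666 in D_C and 1065, 1672, 1168 and 977 in D_B12, where D_B12 2 stood among the D_C values. It had 1494, 1328, 1829 and 1442 in ND_C and 1169, 1375, 1239.8 and 1214 in ND_B12, which overlapped. Its log2 fold change was -0.34 ± 0.15, with an adjusted p-value of 0.339 by edgeR. Xaf1, a proapoptotic gene, was at -0.49 ± 0.18 in ND_B12 minus ND_C, with an adjusted p-value of 0.6 by edgeR.

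**Figure D3:**
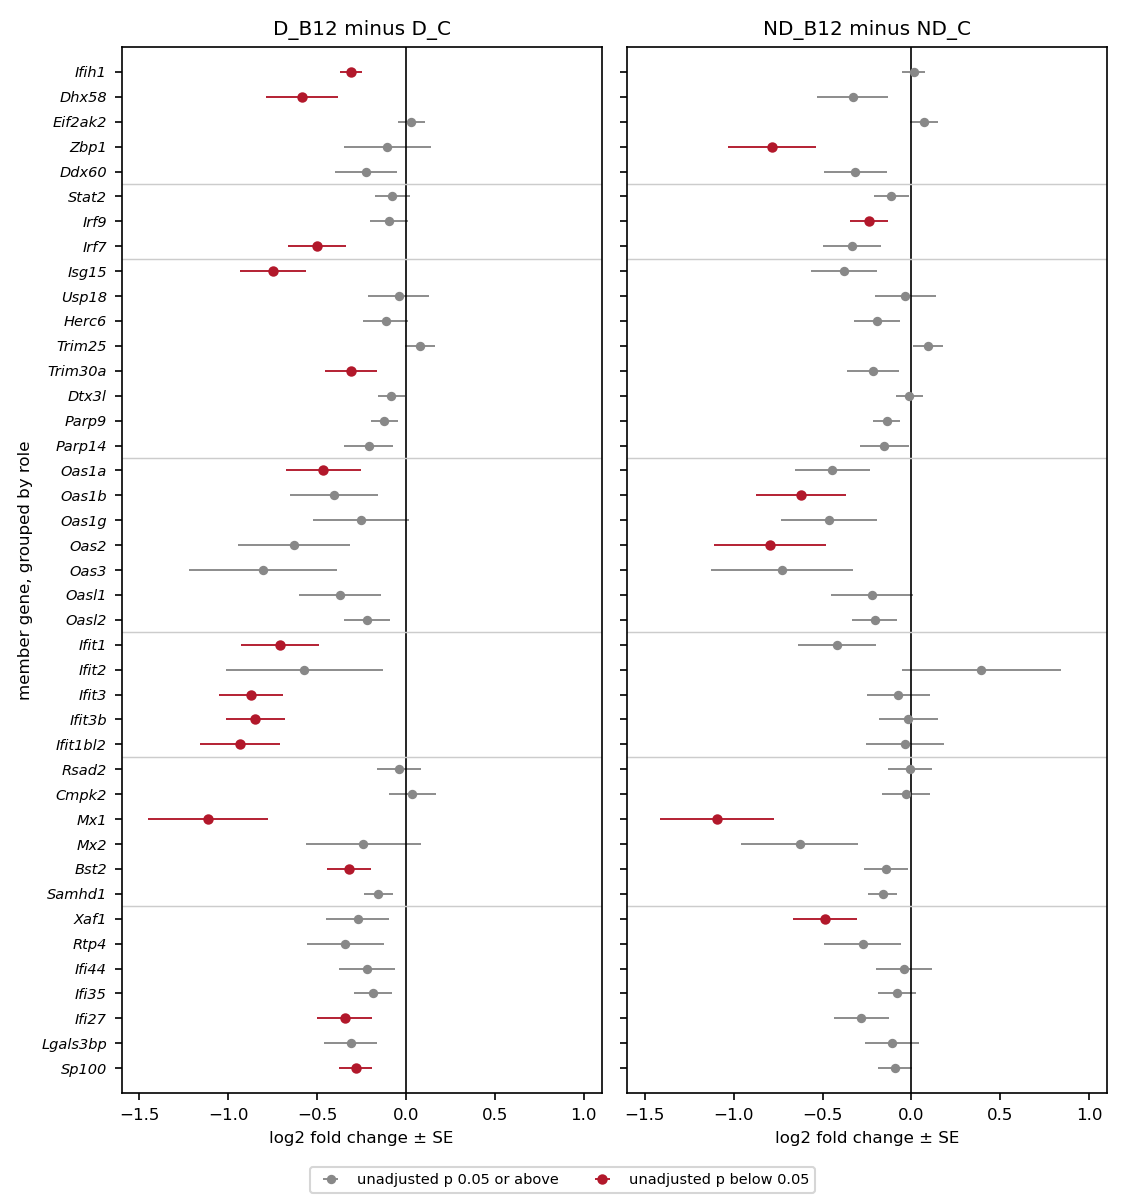
Log2 fold change ± SE of each member (horizontal axis, edgeR) in D_B12 minus D_C (left) and ND_B12 minus ND_C (right), ordered by role. Red points have an unadjusted p-value below 0.05, 14 on the left and 6 on the right, all below 0. The IFIT genes stand between -0.93 and -0.57 on the left and between -0.42 and 0.39 on the right.

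In ND_B12 minus ND_C, 37 of 41 members were lower, with a median log2 fold change of -0.19. Again no member passed an adjusted p-value of 0.05 by edgeR, and 0% of all genes did. At an unadjusted p-value below 0.05, 6 members (14.6%) were lower, namely Zbp1, Irf9, Oas1b, Oas2, Mx1 and Xaf1, where 3.95% of all genes were lower by that rule. In 34 of the 41 members both ND_C 1 and ND_C 4 were above both ND_C 2 and ND_C 3, an order that 17.2% of all genes showed. The count of 6 became 2 without ND_C 1, where 2.81% of all genes were lower by that rule, and 16 without ND_C 3, where 4.2% were. Over the 5 libraries that labels and published means place alike, an alternative chosen after seeing the data, 39 members were lower. Of the members 15 (36.6%) were lower at an unadjusted p-value below 0.05 by edgeR, where 4.1% of all genes were, and 0 passed an adjusted one, which 0.0315% of all genes did. Within the only label date that holds both groups, ND_B12 1 was below ND_C 4 in 33 of 41 members (80.5%), as it was in 51.2% of all genes. That sets a single library against a single library, and the published means place both in the set for ND_C. ND_C 4 also had a mean log2 CPM of the members of 2.78, second only to the 2.80 of ND_C 1. This pair therefore cannot tell a difference by B12 from one between mice.

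Between diabetic and non-diabetic kidneys the members' median differences were closer to 0. In D_C minus ND_C, 23 of 41 members were lower with a median of -0.05, and 0 passed an adjusted p-value of 0.05 by edgeR, which 1.66% of all genes did. At an unadjusted p-value below 0.05, 2 members (4.88%) were lower (Zbp1 at -0.58 and Mx1 at -0.78) and 2 were higher (Ifit3 at 0.46 and Ifit3b at 0.49), where 9.28% of all genes were lower and 9.31% higher. The sign of this median depended on single libraries, since without ND_C 1 it turned to 0.029, with 18 members lower. Without D_C 1, 26 members were lower, 7 of them (17.1% of the members) at an unadjusted p-value below 0.05, where 12.3% of all genes were. Zbp1 alone (2.44% of the members) then passed an adjusted p-value of 0.05, at -0.86 with 0.0407 by edgeR, where 6.2% of all genes passed. In D_B12 minus ND_B12, 31 members were lower with a median of -0.09, and 0 passed the adjusted threshold, which 0.823% of all genes did. Ifih1, Ifit1bl2 and Mx1 (7.32% of the members) were lower at an unadjusted p-value below 0.05, where 9.2% of all genes were. With the label date as a covariate these medians turned to 0.14 and 0.19, in a fit that can hardly separate date from group.

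The interaction asks whether the difference by B12 was the same in diabetic and non-diabetic kidneys. It was negative, meaning more negative in diabetic kidneys, in 28 members with a median of -0.06. Without ND_C 3 it was negative in 19 members and the median turned to 0.023, and without ND_C 4 it was negative in 33. The direction of the median therefore depends on a single library. No member passed an adjusted p-value of 0.05 by edgeR, and 0% of all genes did. Ifih1 at -0.32 ± 0.09, Ifit3 at -0.80 ± 0.25, Ifit3b at -0.83 ± 0.23 and Ifit1bl2 at -0.90 ± 0.31 had an unadjusted p-value below 0.05, and these 4 are 9.76% of the members where 8.1% of all genes were negative by that rule. Their adjusted p-values were 0.107, 0.141, 0.11 and 0.175 by edgeR, and 0.0256, 0.0432, 0.021 and 0.0848 by DESeq2, so that 3 of them (7.32% of the members) passed there, where 3.71% of all genes did. DESeq2 was the more liberal tool in the simulation of D_B12 minus D_C above. In Mx1 the interaction was -0.02 ± 0.41 and in the OAS family its median was -0.01.

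**Figure D4:**
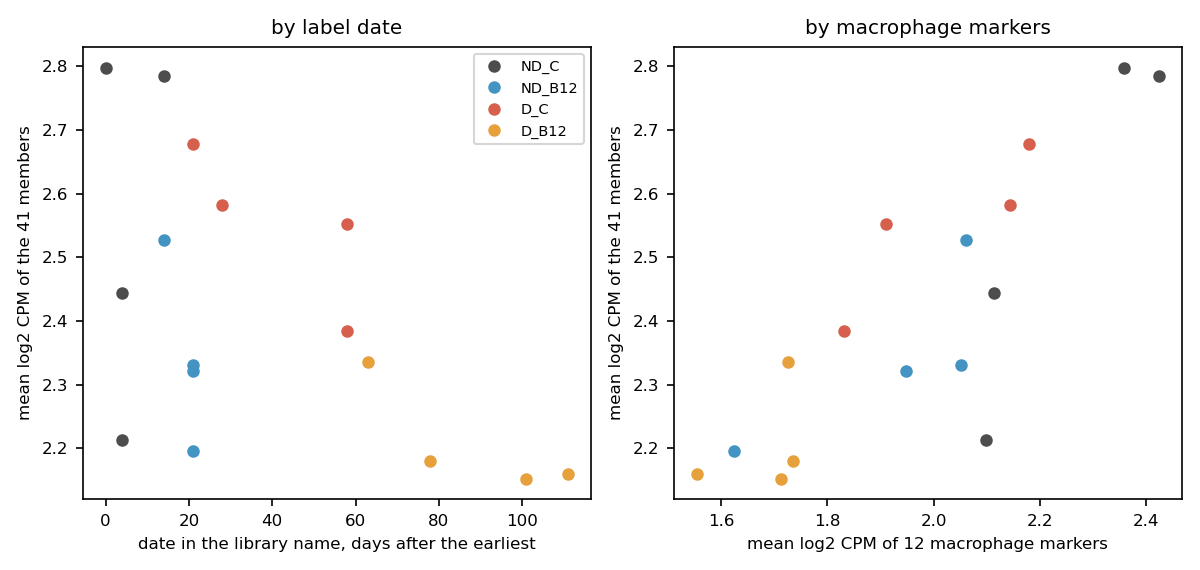
Each point is a library, coloured by labelled group, and the vertical axis averages log2 CPM (prior count 2) over the 41 members. The horizontal axis is the label date in days after the earliest on the left and the mean log2 CPM of 12 macrophage markers on the right. The D_B12 libraries hold the 4 latest dates and, with ND_B12 4, the 5 lowest macrophage means.

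Averaged over the 41 members, log2 CPM was 2.55 ± 0.12 in D_C and 2.21 ± 0.09 in D_B12, and 2.56 ± 0.28 in ND_C and 2.34 ± 0.14 in ND_B12 (SD, n = 4). The lowest D_C library, at 2.38, was above the highest D_B12 library, at 2.34, and ND_C spread from 2.21 to 2.80. ND_C 1 was the highest library in 15 of the 41 members and D_B12 4 the lowest in 9.

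In whole tissue, fewer cells of a type and less RNA per cell cannot be told apart. Of 12 macrophage markers, all 12 were lower in D_B12 minus D_C, with a median of -0.35 and 6 at an unadjusted p-value below 0.05, and 11 were lower in ND_B12 minus ND_C. Their summed normalized counts were 7442 to 8038 in D_C, 5472 to 6150 in D_B12, 7990 to 9628 in ND_C and 5835 to 8272 in ND_B12, and none of the 12 was at 0. Of 8 endothelial markers, all 8 were lower in D_B12 minus D_C and all 8 higher in D_C minus ND_C, where Flt1, Egfl7 and Eng passed an adjusted p-value of 0.05 by edgeR. Summed, these markers were 40164 to 48545 in D_C, 36874 to 43889 in D_B12, 33045 to 36612 in ND_C and 38046 to 43743 in ND_B12. The 7 markers of plasmacytoid dendritic cells, the main makers of type I interferon, summed to 4929 to 5695 in D_C and 4481 to 5291 in D_B12, with 4 of 7 lower. That sum follows its most abundant markers and is no measure of these cells. In D_C minus ND_C the median marker stood at -0.31, while the median sum was 4776 in ND_C and 5291 in D_C. Of 9 T cell markers 6 were lower and of 8 B and plasma cell markers 7 were lower in D_B12 minus D_C, 0 of them at an unadjusted p-value below 0.05. The part of these cells in the members' values was not tested. Kidney identity was plain in each library, with summed proximal tubule markers of 922156 to 1214100 normalized counts.

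The rest of the pathway was read from lists of its parts. Of 21 interferon genes, 12 had no count in any library, and only Ifnk, an interferon of skin cells, reached 100 counts, with 49.4 normalized counts in D_C and 80.2 in D_B12 (log2 fold change 0.69, adjusted p-value 0.304 by edgeR). Ifng had 27 counts over all 16 libraries and Ifnb1 had 0, and a count of 0 allows up to 3 counts over the 16 libraries, by counting error only. Of 10 receptors and kinases, 8 were lower in D_B12 minus D_C with a median of -0.12, led by Jak2 at -0.23 and Ifngr1 at -0.16, and 0 passed the adjusted threshold. Of 16 sensing genes and adaptors, 12 were lower with a median of -0.16. The smallest p-values of that list belonged to Tbk1, the kinase that activates interferon regulatory factors, which was higher at 0.15, and to Ifi204, a DNA-binding sensor, which was lower at -0.32, and neither passed the adjusted threshold. Of 10 inhibitors of the pathway, 7 were lower with a median of -0.07. Rnaseh2a, a subunit of the nuclease that removes RNA from DNA, was the one that passed the adjusted threshold in any comparison, at 0.46 in D_C minus ND_C with an adjusted p-value of 0.034 by edgeR.

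Targets of interferon gamma, the type II interferon of lymphocytes, were the more uniform list. All 28 were lower in D_B12 minus D_C with a median of -0.33 and 13 at an unadjusted p-value below 0.05, and 27 were lower in ND_B12 minus ND_C with a median of -0.29. In contrast to the members, 26 of the 28 were also lower in D_C minus ND_C, with a median of -0.37, and 26 in D_B12 minus ND_B12, with a median of -0.42, a difference between the lists that was not tested. Gbp3, a guanylate-binding protein, fell in D_C minus ND_C at -0.53 (adjusted p-value 0.0464 by edgeR). Irgm1 and Irgm2, immunity-related GTPases, fell in D_B12 minus ND_B12 at -0.43 and -0.56 (adjusted p-values 0.029 and 0.0487 by edgeR). In a second list of 55 interferon-stimulated genes, 43 were lower in D_B12 minus D_C with a median of -0.15, and 40 in ND_B12 minus ND_C with a median of -0.18. There Ifitm1, which blocks virus entry, rose in D_C minus ND_C at 1.08 (adjusted p-value 0.0294 by edgeR), and Ly6e fell in D_B12 minus ND_B12 at -1.37 (adjusted p-value 0.0418 by edgeR).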

How the data were processed

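Total RNA of 16 kidneys was sequenced as paired reads of 50 bases. The authors aligned the reads with STAR to GRCm39 with GENCODE vM35 and deposited an estimated count per gene and per transcript, made with StringTie and its prepDE script, for which strandedness is not stated. The estimated counts were whole numbers as deposited, and 0 columns lacked a library. Genes that reached 100 counts in total were fitted together in edgeR 4.0.16 (R 4.3.3, glmQLFit and glmQLFTest, TMM). The model held the 4 labelled groups as means over the 16 libraries, which leaves 12 residual degrees of freedom, and p-values were two-sided and adjusted by Benjamini-Hochberg, called at 0.05. Normalized counts were scaled by DESeq2's size factors. For the more abundant members counting error is small beside the spread between mice, whose common biological coefficient of variation was 0.201. It is not small for members with few counts, such as Mx1 and Oas3, with means of 13.8 and 23.2 normalized counts in D_B12.

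The members and all gene lists were chosen with earlier results of these data known. Values in every library are given for the 2 members of each role group with the smallest unadjusted p-value in D_B12 minus D_C and for any member with an adjusted p-value below 0.05 in a comparison. Of the other lists, genes with an adjusted p-value below 0.05 in any comparison were named, or else those with the smallest unadjusted p-value in D_B12 minus D_C. Where a symbol occurred more than once its most abundant entry was used. Positions, spans and promoter windows come from GENCODE vM39 on the same build, since vM35 was not used here. Alternatives were DESeq2 1.42.0, upper-quartile normalization, other filters, a covariate for the label date, a block for the replicate number, fits of only the compared groups, and leaving out each library.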

Additional observations from a re-analysis of the deposited data

Results flagged for a closer look

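In groups of 4, 80 gaps between the most extreme library and its neighbour were compared with the 95% critical ratio of Dixon's test, which chance passes in about 1 of 20 groups, and 3 passed it. Ifih1 was 1287 normalized counts in ND_C 2, below the 1380 of its nearest neighbour in ND_C. Irf9 was 658 normalized counts in ND_B12 4, below the 874 of the nearest of the other 3 ND_B12 libraries. The mean log2 CPM of the members was 2.34 in D_B12 1, above the 2.18 of the nearest other D_B12 library. No other library value in the groups compared passed the ratio.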

How the results depend on the processing

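The member counts rest on unadjusted p-values, and at an adjusted 0.05 by edgeR no member passed in any of the 5 comparisons. The share of all genes lower at an unadjusted p-value below 0.05 by edgeR moved with the setting too. Where it is given for an alternative, it ran from 2.81% to 12.3%. Member counts below without that share show only how the count moved, and say nothing of the members against all genes. Counting error weighs most on Mx1, whose 481 counts over the 16 libraries were the fewest of the members. Calls over all genes, which were 0, 0, 423, 209 and 0 in D_B12 minus D_C, ND_B12 minus ND_C, D_C minus ND_C, D_B12 minus ND_B12 and the interaction, depended on the setting, and the cause was not tested.

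By DESeq2 the calls were 670, 6, 1637, 1189 and 943 genes in that order, with 6, 0, 1, 2 and 3 members. With the label date as a covariate they were 204 in D_B12 minus D_C (1 member), 2 in D_C minus ND_C, 29 in D_B12 minus ND_B12 and 753 in the interaction (1 member). Under that covariate the members lower at an unadjusted p-value below 0.05 were 4 in D_B12 minus D_C, 0 in D_C minus ND_C and 1 in D_B12 minus ND_B12, the members lower were 11, 12 and 16 in D_C minus ND_C, D_B12 minus ND_B12 and the interaction, and the medians were -0.056 in D_B12 minus D_C, 0.14 in D_C minus ND_C and 0.19 in D_B12 minus ND_B12. Zbp1, Irf9 and Oas2 turned to 0.37, 0.052 and 0.077 in D_B12 minus D_C. Since label date and group are nearly confounded, differences by date and by group cannot be told apart in this fit.

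Without a filter beyond 1 count the calls were 63 in D_C minus ND_C and 35 in D_B12 minus ND_B12. Upper-quartile normalization gave 18 in D_B12 minus ND_B12, and 11 members in place of 6 lower at an unadjusted p-value below 0.05 in ND_B12 minus ND_C. With the compared groups fitted alone the calls were 1 in D_B12 minus D_C and 182 in D_C minus ND_C, and the members lower at an unadjusted p-value below 0.05 were 0 in D_C minus ND_C and 6 in D_B12 minus ND_B12. Replicate numbers did not pair the libraries, since residuals of the 24 same-numbered pairs correlated between -0.183 and 0.168 and 5 of 16 libraries correlated best with their own number. The replicate block gave 269, 25 and 147 calls in D_C minus ND_C, D_B12 minus ND_B12 and the interaction, and 4 members lower at an unadjusted p-value below 0.05 in D_C minus ND_C. Over the 5 libraries placed alike by labels and published means, an alternative chosen after seeing the data, ND_B12 minus ND_C gave 8 calls, 15 members lower at an unadjusted p-value below 0.05 and Ifit2 at -0.034.

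Leaving out each library in turn, the calls ranged from 0 to 69 in D_B12 minus D_C, 0 to 2 in ND_B12 minus ND_C, 0 to 1552 in D_C minus ND_C, 0 to 441 in D_B12 minus ND_B12 and 0 to 266 in the interaction. The highest counts came without D_C 1, except 2 without ND_C 3 and 441 without D_C 2. Members called were 0 to 1 in D_C minus ND_C. Members lower at an unadjusted p-value below 0.05 ranged from 11 to 19, 2 to 16, 0 to 7 and 2 to 6 in the 4 pairwise comparisons in the order above. The 7 in D_C minus ND_C came without D_C 1, where 12.3% of all genes were lower by that rule. The log2 fold change in D_B12 minus D_C ranged from -0.23 to 0.18 for Zbp1 and from -0.10 to 0.019 for Rsad2, which was above 0 without D_C 4, D_B12 3 or D_B12 4, and Zbp1 was above 0 without D_C 1. Of 922 values for single members under these settings, 8 turned direction and 15 passed the threshold where they had not.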
